A study of Homo sapiens with 12 samples.

Results

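The genes described here are the core of the switch that lets a cell leave G1 and copy its DNA: 10 genes, chosen by symbol out of the 56832 gene symbols in the count tables. They are 5 inhibitors of cyclin-dependent kinases (CDKN1A, CDKN1B, CDKN1C, CDKN2B and CDKN2C), the D-type cyclins CCND1, CCND2 and CCND3, and the kinases CDK4 and CDK6. Of these, 9 had enough reads to be tested. CCND2 did not pass the filter on low counts, with 1 read in all libraries together. The 10 genes and the pathway lists used below were chosen with earlier results of these data known. Their counts and medians beside those of all genes are therefore descriptions only.

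The libraries came from SW1736, an established line of anaplastic thyroid carcinoma, the dedifferentiated form of thyroid cancer. The cells carried the pCDH vector either empty (EV) or encoding the thyroid hormone receptor beta (TRB), so all groups share the vector backbone. After 24 h of hormone starvation they received 10 nM triiodothyronine (T3), the active thyroid hormone, or NaOH as vehicle, again for 24 h. Each of the 4 groups (EV vehicle, EV T3, TRB vehicle, TRB T3) had 3 libraries of total RNA. The labels do not say whether the 3 came from separate cultures or how many clones or pools of transduced cells were used, so p-values measure only the spread between these samples, which may be technical.

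D-type cyclins bind CDK4 or CDK6, and the active pairs phosphorylate the retinoblastoma protein, which releases E2F factors and the genes for DNA synthesis. The INK4 inhibitors, here CDKN2B (p15) and CDKN2C (p18), bind the kinases themselves. The CIP/KIP inhibitors CDKN1A (p21), CDKN1B (p27) and CDKN1C (p57) bind cyclin-kinase pairs and block CDK2 in particular. Thyroid hormone receptors are transcription factors that sit on DNA with or without hormone and change partners when T3 binds, and TRB is studied as a growth-restraining receptor in thyroid cancer.

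THRB, the gene of the introduced receptor, was at 12.3 to 18.3 CPM (read counts normalised to the TMM-scaled library size) in the 6 EV libraries, 79.8 to 80.4 CPM in TRB vehicle and 190.3 to 321.9 CPM in TRB T3. TRB T3 thus differed from TRB vehicle in THRB level as well as in hormone. In the T3 response of TRB cells and in its difference from that of EV cells, the 2 cannot be told apart. Gene counts summed to between 3819306 and 13086717 per library. TRB T3 replicate 2 stood apart: it had the fewest genes with a count, 17833, and its deviation from the other 2 libraries of its group followed GC content, with a Spearman rho of -0.886 across 12130 genes, which are not independent replicates. The results are therefore given from the fit of all 12 libraries and from the same fit on the 11 libraries without it. In the set of 11, the rho of each library's deviation from the mean with GC content was -0.29, -0.75 and -0.53 in EV vehicle and 0.50, -0.63 and 0.76 in EV T3, so EV T3 replicate 2 stood with EV vehicle and apart from the other EV T3 libraries. It lay between -0.01 and 0.33 in the TRB libraries. Of the 7 thyroid markers checked, FOXE1 and TSHR were at 0 in every library and the median of PAX8 was 4.57 CPM. The epithelial markers were high, with a median of 458.0 CPM for EPCAM and 157.9 CPM for CDH1. Of the 3 mesenchymal markers, CDH2 was at 0 and VIM reached at most 1.51 CPM, while their sum, made almost wholly by FN1, was 10.1 to 17.5 CPM in the vehicle groups, 66.4 to 74.7 CPM in EV T3 and 147.9 to 303.1 CPM in TRB T3. The part of this higher mesenchymal sum with T3 in the results below was not tested. Leukocyte, endothelial and red cell markers each summed to at most 1.01 CPM. In bulk RNA, fewer cells in one phase of the cycle and less RNA per cell cannot be told apart.

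With T3 in TRB cells, the kinase genes were lower and the main D-type cyclin was higher. In the 12-library fit 3 of the 9 tested members passed the threshold (an adjusted p under 0.05), where 14.7% of the 14431 genes tested did. CCND1 rose, as did 8.54% of all genes, and CDK4 and CDK6 fell, as did 6.20%. Without TRB T3 replicate 2, 7 members passed, beside 33.3% of 14825 genes. CDKN1A, CDKN1C, CCND1 and CCND3 rose (18.1% of all genes did), and CDKN2B, CDK4 and CDK6 fell (15.2% did). The 12-library count became 1, with CCND1 the gene that passed, when any of the EV vehicle libraries, any of the TRB vehicle libraries or EV T3 replicate 1 was left out (1256 to 1850 genes called), and 0 in a fit of the TRB libraries alone, where 634 genes were called (adjusted p of 0.103 for CCND1, 0.179 for CDK4 and 0.191 for CDK6). The 11-library count became 4 when TRB T3 replicate 3 was left out as well (3190 genes called). The members' median log2 change was 0.26 in the first fit and 0.36 in the second, beside medians of 0.01 and -0.01 over all genes tested.

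**Figure D1:**
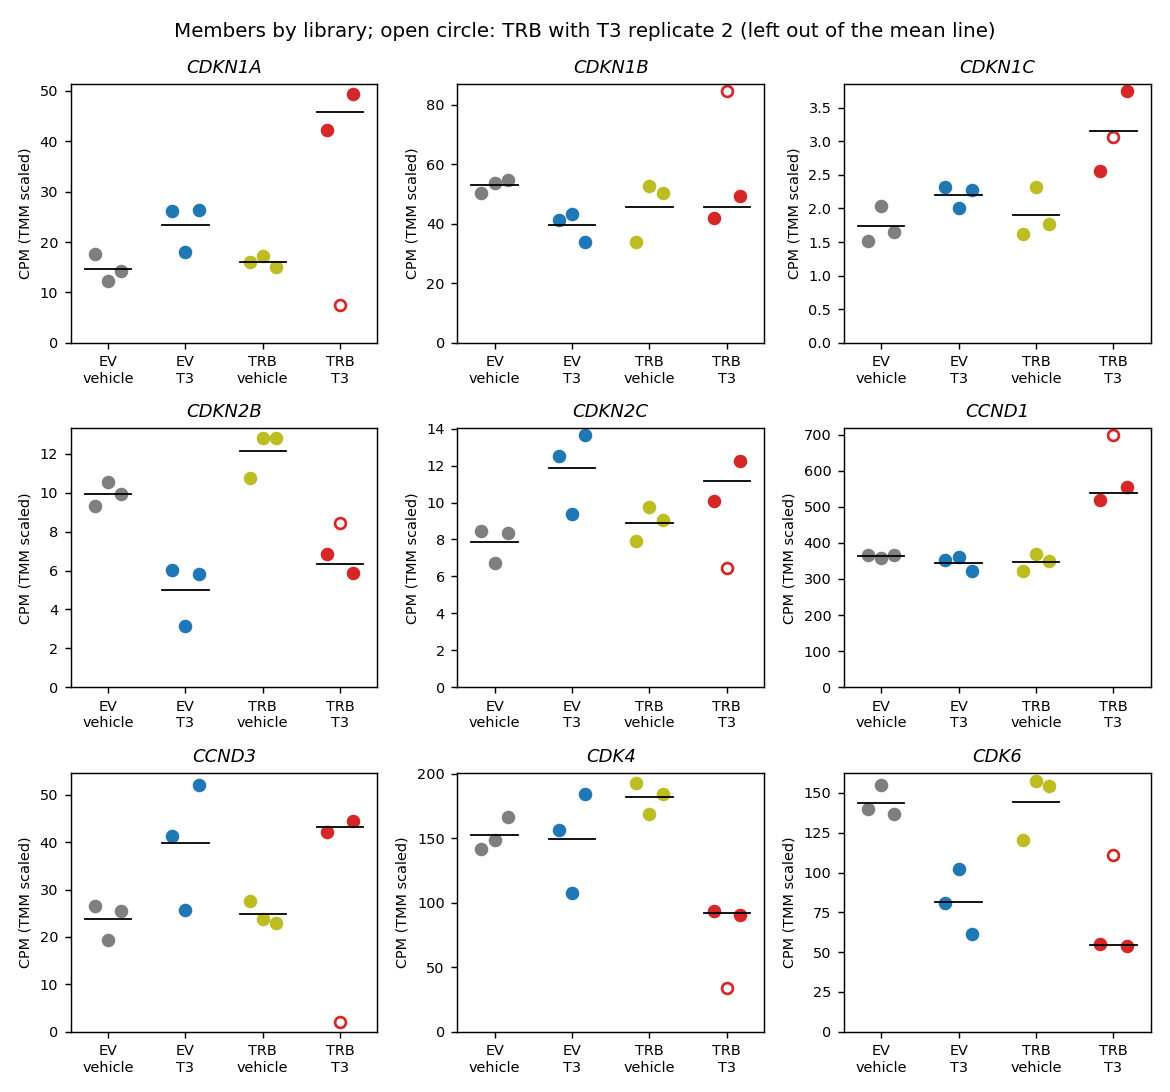
Expression of the 9 tested genes in each library, in CPM scaled by TMM on a linear axis from 0; points are libraries, grouped by vector and treatment, the open circle is TRB T3 replicate 2 and the line is the group mean without it. CCND1 stands above every other group in all 3 TRB T3 libraries, and CDK4 stands below them.

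CDKN1A encodes p21, the inhibitor best known as a p53 target (chromosome 6, 36676460 to 36687339, plus strand, GRCh38). In EV vehicle it was at 17.6, 12.3 and 14.2 CPM, in EV T3 at 26.1, 18.0 and 26.3 CPM, in TRB vehicle at 16.0, 17.1 and 15.1 CPM, and in TRB T3 at 42.3, 7.56 and 49.3 CPM. All EV T3 values lay above all EV vehicle values, while TRB T3 held both the 2 highest values and, in replicate 2, the lowest of the 12. The log2 change with T3 in TRB cells was 1.05 ± 0.50 (SE; adjusted p = 0.187) in the 12-library fit and 1.56 ± 0.18 (adjusted p = 2.22e-05) in the 11-library fit, a 2.94-fold increase. In EV cells it was 0.68 ± 0.51 (adjusted p = 0.935) and 0.69 ± 0.18 (adjusted p = 0.0376), the latter 1.61-fold. The 11-library increase in EV cells did not pass in 9 of 15 alternative fits of that set, and leaving out EV vehicle replicate 2 as well gave an adjusted p of 0.181. With T3 in both, TRB cells had 2.06-fold more CDKN1A than EV cells (log2 difference 1.04 ± 0.18, adjusted p = 0.00127) in the 11-library fit, and 0.51 ± 0.50 (adjusted p = 0.508) with all 12.

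The region before the RefSeq start of CDKN1A is shown because this gene had the largest increase of the set in the 11-library fit. That of CDK4 is shown further on. The CDKN1A window, 36678464 to 36678713, lies inside the gene span given above, and 152 of its 250 bases are in annotated exons. RefSeq starts on GRCh38.p14 matched 7 of the 10 genes, with 12 starts in all, and the 250 bases before each were searched on both strands for 9 short motifs: AGGTCA (the half-site of thyroid hormone receptor elements), CACGTG and CAGCTG (E-boxes), GGGCGG (the GC box), TATAAA, the E2F-type sites TTTCCCGC, TTTGGCGC and TTTCGCGC, and GTCTAGAC (a SMAD box). AGGTCA was in 0 of the 12 windows, and 12.1% of 35116 windows of this length hold it; no E2F-type site, TATAAA or GTCTAGAC was found in them either, and CAGCTG was in 5. GGGCGG was in 9 of the 12, beside 42.6% of all windows. CDKN1A held 4 of them, and 7.63% of all windows hold 4 or more; the last pair share 1 base. The stretches printed below carry these boxes, in capitals, on the plus strand of chromosome 6, at 36678603 to 36678632 (bases 111 to 82 before the start) and at 36678659 to 36678688 (bases 55 to 26 before it).
CDKN1A distal boxes: ccggggaGGGCGGtcccGGGCGGcgcggtg
CDKN1A proximal boxes: aggcgggcccGGGCGGGGCGGttgtatatc
These matches are a description of the letters in the window, not of binding.

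CDKN1B, which encodes p27 (chromosome 12, 12715058 to 12722371, plus strand), was the most abundant of the inhibitors per length of exon. Its levels were 50.4, 53.7 and 54.7 CPM in EV vehicle, 41.2, 43.2 and 33.9 CPM in EV T3, 33.7, 52.8 and 50.4 CPM in TRB vehicle, and 42.0, 84.5 and 49.2 CPM in TRB T3. The EV T3 values were all below the EV vehicle values, and the TRB groups overlapped. No comparison of CDKN1B passed in either fit: its log2 change with T3 was -0.41 (95% interval -0.77 to -0.05, adjusted p = 0.133) in EV cells and 0.04 (95% interval -0.35 to 0.43, adjusted p = 0.89) in TRB cells in the 11-library fit. With all 12 libraries these were -0.42 (adjusted p = 0.935) and 0.36 (adjusted p = 0.383).

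CDKN1C, which encodes p57 from an imprinted gene (chromosome 11, 2883213 to 2885773, minus strand), was scarce, with 7 to 34 reads per library. It was at 1.52, 2.04 and 1.65 CPM in EV vehicle, 2.32, 2.01 and 2.28 CPM in EV T3, 1.63, 2.33 and 1.76 CPM in TRB vehicle, and 2.55, 3.06 and 3.75 CPM in TRB T3. The TRB T3 values were above those of every other group, replicate 2 included. Its log2 change with T3 in TRB cells was 0.72 ± 0.25 (adjusted p = 0.045) in the 11-library fit and 0.69 ± 0.24 (adjusted p = 0.0766) in the 12-library fit. The increase passed in 7 of 16 alternative fits of the 11 libraries, with adjusted p-values from 0.0341 to 0.339. In EV cells the change was 0.29 (adjusted p = 0.553) in the 11-library fit, and the difference between the changes in the 2 cell populations did not pass (0.43, adjusted p = 0.487).

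CDKN2B, the INK4 inhibitor p15 (chromosome 9, 22002903 to 22009363, minus strand), was lower with T3 with either vector. It was at 9.34, 10.5 and 9.93 CPM in EV vehicle, 6.02, 3.17 and 5.82 CPM in EV T3, 10.8, 12.8 and 12.8 CPM in TRB vehicle, and 6.83, 8.45 and 5.87 CPM in TRB T3. Every T3 library lay below every vehicle library. In the 11-library fit CDKN2B fell by 1.06 on the log2 scale in EV cells (SE 0.21, adjusted p = 0.0125), a 2.09-fold decrease, and in TRB cells the log2 change was -0.88 ± 0.21 (adjusted p = 0.0056), 1.84-fold lower. The 12-library fit gave -1.02 ± 0.26 (adjusted p = 0.244) and -0.79 ± 0.25 (adjusted p = 0.0555), so neither passed there. The difference between the 2 changes was 0.18 (95% interval -0.46 to 0.83, adjusted p = 0.71) in the 11-library fit. Leaving out EV vehicle replicate 2 as well gave an adjusted p of 0.0668 in EV cells, and leaving out TRB T3 replicate 3 as well gave 0.0591 in TRB cells.

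The antisense transcript CDKN2B-AS1 was named for its position at the CDKN2B locus after its values were seen. With 6 to 68 reads per library, its log2 change with T3 in TRB cells was 0.84 ± 0.29 (adjusted p = 0.0405) in the 11-library fit and 1.25 ± 0.39 (adjusted p = 0.056) in the 12-library fit, the opposite sign to CDKN2B. In EV cells it was -0.39 (adjusted p = 0.494) with 11 libraries.

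CDKN2C, the INK4 inhibitor p18 (chromosome 1, 50960745 to 50974633, plus strand), was at 8.47, 6.70 and 8.36 CPM in EV vehicle, 12.5, 9.40 and 13.7 CPM in EV T3, 7.93, 9.74 and 9.06 CPM in TRB vehicle, and 10.1, 6.48 and 12.2 CPM in TRB T3. EV T3 lay wholly above EV vehicle, and TRB T3 replicate 2 was the lowest of all libraries. The 11-library log2 change was 0.59 ± 0.18 (adjusted p = 0.0653) in EV cells and 0.36 ± 0.18 (adjusted p = 0.16) in TRB cells, and neither passed. The 12-library values were 0.59 (adjusted p = 0.796) and 0.11 (adjusted p = 0.773).

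The balance of the INK4 pair within a library does not depend on how libraries are scaled. Per length of exon, the log2 ratio of CDKN2B to CDKN2C was -0.15, 0.36 and -0.04 in EV vehicle and 0.15, 0.11 and 0.21 in TRB vehicle. With T3 it was -1.34, -1.86 and -1.52 in EV cells and -0.85, 0.09 and -1.35 in TRB cells. The genes stood near parity in the vehicle libraries and in TRB T3 replicate 2, and CDKN2C led in the other 5 T3 libraries. The transcripts of the pair differ in GC content (44.6% for CDKN2B and 58.1% for CDKN2C), and the part of the GC trends in this ratio was not tested.

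**Figure D2:**
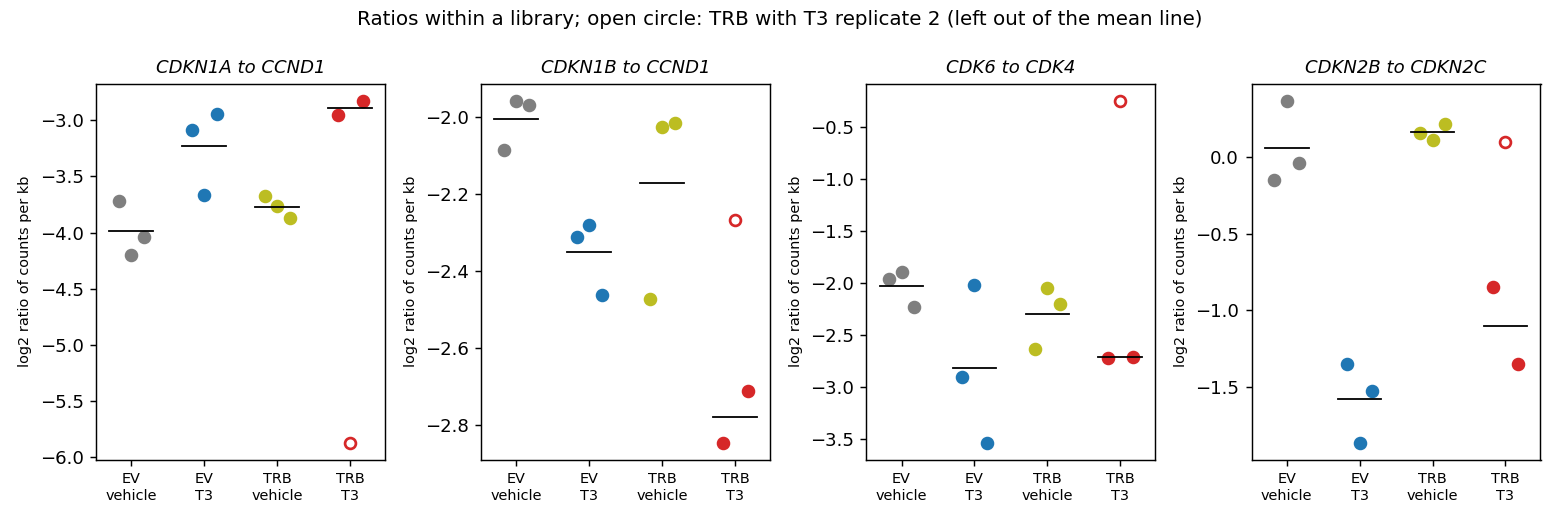
Log2 ratios of counts per kilobase of exon between pairs of genes within each library, by group; the open circle is TRB T3 replicate 2 and the line is the group mean without it. The ratio of CDKN2B to CDKN2C lies between -0.15 and 0.36 in the vehicle libraries and at -0.85 or below in the T3 libraries other than TRB T3 replicate 2.

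CCND1, cyclin D1 (chromosome 11, 69641087 to 69654474, plus strand), was the most abundant member per length in EV vehicle. It was at 367.5, 358.1 and 367.6 CPM in EV vehicle, 351.6, 360.6 and 321.2 CPM in EV T3, 322.1, 369.1 and 349.7 CPM in TRB vehicle, and 519.6, 699.1 and 554.6 CPM in TRB T3. The 9 libraries outside TRB T3 lay between 321.2 and 369.1 CPM, and all 3 TRB T3 libraries lay above them. CCND1 rose with T3 in TRB cells by 0.77 ± 0.15 on the log2 scale (adjusted p = 0.00604) in the 12-library fit and by 0.68 ± 0.10 (adjusted p = 0.000235), or 1.60-fold, in the 11-library fit. In EV cells the change was -0.08 (95% interval -0.28 to 0.12, adjusted p = 0.596) in the 11-library fit. The difference between these changes was 0.76 ± 0.14 (adjusted p = 0.00321) with 11 libraries and 0.85 ± 0.21 (adjusted p = 0.0664) with 12. An overlapping gene on the other strand, LTO1, shares 10.3% of the exon bases of CCND1, and the strand setting of the counting is not given in the sources used here.

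CCND3, cyclin D3 (chromosome 6, 41934933 to 42050357, minus strand), was at 26.5, 19.4 and 25.4 CPM in EV vehicle, 41.4, 25.8 and 52.1 CPM in EV T3, 27.5, 23.9 and 23.0 CPM in TRB vehicle, and 42.1, 1.98 and 44.5 CPM in TRB T3. TRB T3 replicate 2, with 11 reads, was far below all other libraries, and EV T3 replicate 2 lay within the range of EV vehicle. The log2 change with T3 in TRB cells was 0.26 ± 0.71 (adjusted p = 0.82) in the 12-library fit and 0.85 ± 0.22 (adjusted p = 0.00976), or 1.81-fold, in the 11-library fit. In EV cells the 11-library change was 0.73 ± 0.21 (adjusted p = 0.0553), and it passed in 4 of 15 alternative fits. The difference between the 2 cell populations was 0.12 (95% interval -0.54 to 0.79, adjusted p = 0.812).

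CCND2, cyclin D2 (chromosome 12, 4273772 to 4305350, plus strand), had 0 reads in 11 libraries and 1 read in TRB vehicle replicate 2. A count of 0 allows up to 3 reads, which is 0.225 to 0.759 CPM depending on the library, for counting error only. The D-type cyclin transcripts were thus those of CCND1 and CCND3. Per length of all exons the share of CCND1 among them was 94.3%, 95.7% and 94.6% in EV vehicle, 91.1%, 94.4% and 88.1% in EV T3, 93.4%, 94.9% and 94.8% in TRB vehicle, and 93.7%, 99.8% and 93.7% in TRB T3. The 2 lowest shares are those of EV T3 replicates 3 and 1, and the highest is that of TRB T3 replicate 2, where CCND3 was nearly absent. With the length of the longest transcript in place of all exons, the CCND1 share of EV T3 replicate 3 was 77.4%.

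CDK4 (chromosome 12, 57747727 to 57756013, minus strand) was the second most abundant member per length in EV vehicle, and it fell with T3 in TRB cells in both fits. It was at 141.6, 148.7 and 166.7 CPM in EV vehicle, 156.3, 107.2 and 184.8 CPM in EV T3, 193.0, 168.8 and 184.1 CPM in TRB vehicle, and 93.7, 34.0 and 90.9 CPM in TRB T3. All 3 TRB T3 libraries were below all 9 others. The log2 change with T3 in TRB cells was -1.32 ± 0.34 (adjusted p = 0.0248) in the 12-library fit and -0.93 ± 0.17 (adjusted p = 0.00112), 1.91-fold lower, in the 11-library fit. In EV cells it was -0.04 (95% interval -0.37 to 0.29, adjusted p = 0.888) with 11 libraries. The difference between the changes was -0.89 ± 0.23 (adjusted p = 0.02) with 11 libraries and -1.29 ± 0.47 (adjusted p = 0.189) with 12. TSPAN31, on the opposite strand, shares 43.2% of the exon bases of CDK4. It had 126 to 526 reads against 189 to 2193 for CDK4, and its log2 change with T3 in TRB cells was 0.28 ± 0.14 (adjusted p = 0.161) in the 11-library fit.

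The 250 bases before the RefSeq start of CDK4, 57752311 to 57752560, lie inside the gene span given above, and 211 are in annotated exons. They held CACGTG 3 times, which 0.0797% of all windows match or exceed, and 6.34% hold at least 1. These E-boxes, in capitals, lie on the minus strand of chromosome 12 at 57752499 to 57752528 (bases 218 to 189 before the start) and 57752394 to 57752423 (bases 113 to 84 before it). Of the other members' windows, 2 of CDKN2C held 1 each.
CDK4 distal pair: gtCACGTGtgatagcaacagatCACGTGgc
CDK4 proximal box: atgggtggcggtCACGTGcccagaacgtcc
This window was chosen for display after all 12 had been searched, for its 3 E-boxes.

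CDK6 (chromosome 7, 92604921 to 92836594, minus strand) was lower with T3 with both vectors. It was at 140.1, 155.0 and 136.8 CPM in EV vehicle, 80.9, 102.1 and 61.5 CPM in EV T3, 120.2, 157.6 and 154.6 CPM in TRB vehicle, and 54.9, 110.8 and 53.7 CPM in TRB T3. Every T3 library lay below every vehicle library. In TRB cells the log2 change was -0.98 ± 0.29 (adjusted p = 0.0473) in the 12-library fit and -1.36 ± 0.19 (adjusted p = 0.000156), 2.57-fold lower, in the 11-library fit. In EV cells the values were -0.82 ± 0.29 (adjusted p = 0.605) and -0.80 ± 0.17 (adjusted p = 0.016), the latter 1.75-fold lower. The difference between the 2 cell populations was -0.56 ± 0.25 (adjusted p = 0.158) with 11 libraries. CDK6 has the most AT-rich transcript of the set, with 39.5% GC, and a fit of the 11 libraries with GC-dependent offsets gave -0.51 in EV cells and a difference of -0.88 (adjusted p = 9.36e-06).

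The within-library ratio of CDK6 to CDK4, as log2 of counts per kilobase, was -1.97, -1.89 and -2.24 in EV vehicle and -2.64, -2.05 and -2.20 in TRB vehicle. It was -2.90, -2.02 and -3.54 in EV T3 and -2.72, -0.25 and -2.71 in TRB T3. CDK4 thus led CDK6 in every library, by the least in TRB T3 replicate 2. The ratio of CDKN1A to CCND1 was -3.72, -4.20 and -4.04 in EV vehicle, -3.09, -3.66 and -2.95 in EV T3, -3.67, -3.76 and -3.87 in TRB vehicle, and -2.96, -5.87 and -2.83 in TRB T3. CCND1 was thus above CDKN1A in every library. The T3 values of this ratio lay above the vehicle values with either vector except in TRB T3 replicate 2. Transcripts differ in GC content within both pairs (39.5% for CDK6 and 53.6% for CDK4, 58.1% for CDKN1A and 50.3% for CCND1). EV T3 replicate 2, whose GC trend lay within the EV vehicle range, had a CDK6 to CDK4 ratio within that range too. The part of the GC trends in these ratios was not tested.

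**Figure D3:**
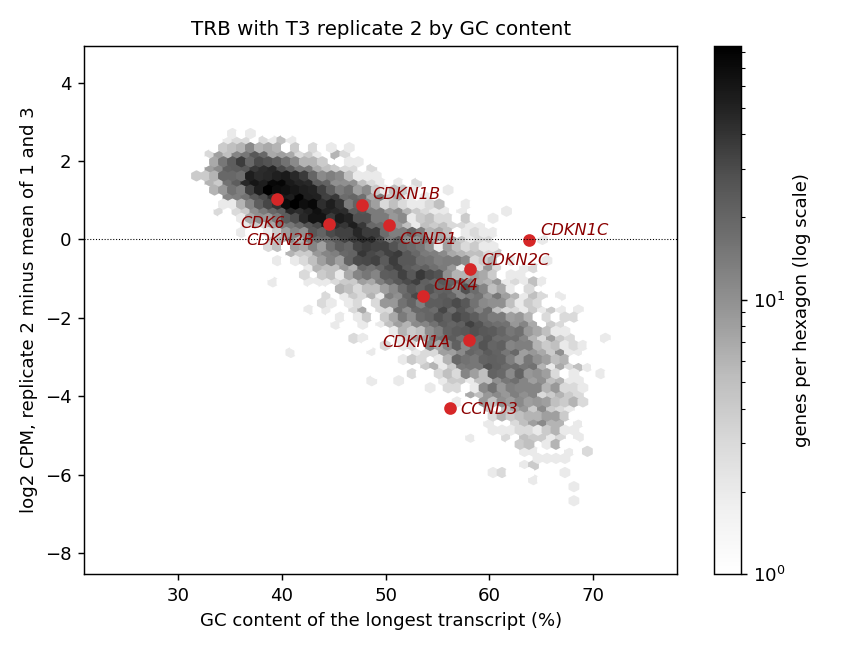
Difference in log2 CPM between TRB T3 replicate 2 and the mean of TRB T3 replicates 1 and 3, against the GC content of each gene's longest transcript; grey hexagons count 12130 genes on a log scale and red points are the 9 tested members. CCND3, at 56.2% GC, is lower by 4.30 and CDK6, at 39.5% GC, is higher by 1.03.

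The departure of TRB T3 replicate 2 differed among the members. CCND3 was lower than the mean of the other pair by 4.30 on the log2 scale, and the differences were -2.56 for CDKN1A, -1.43 for CDK4 and -0.76 for CDKN2C. CDKN1C, at 63.8% GC, differed by -0.02. The values were 0.38 for CCND1, 0.40 for CDKN2B, 0.89 for CDKN1B and 1.03 for CDK6. The members with the lowest values have transcripts of 53.6% to 58.1% GC.

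Levels per length in EV vehicle set the members in order. CCND1 led at 75.4 ± 1.13 CPM per kilobase (SD, n = 3), followed by CDK4 at 48.1 ± 4.09, CDKN1B at 18.8 ± 0.80 and CDK6 at 11.7 ± 0.79. CDKN1A at 4.82 ± 0.87 and CCND3 at 4.09 ± 0.66 overlapped in range, as did CDKN2B at 2.45 ± 0.15 and CDKN2C at 2.36 ± 0.30. CDKN1C was at 0.70 ± 0.11 and CCND2 at 0.

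**Figure D4:**
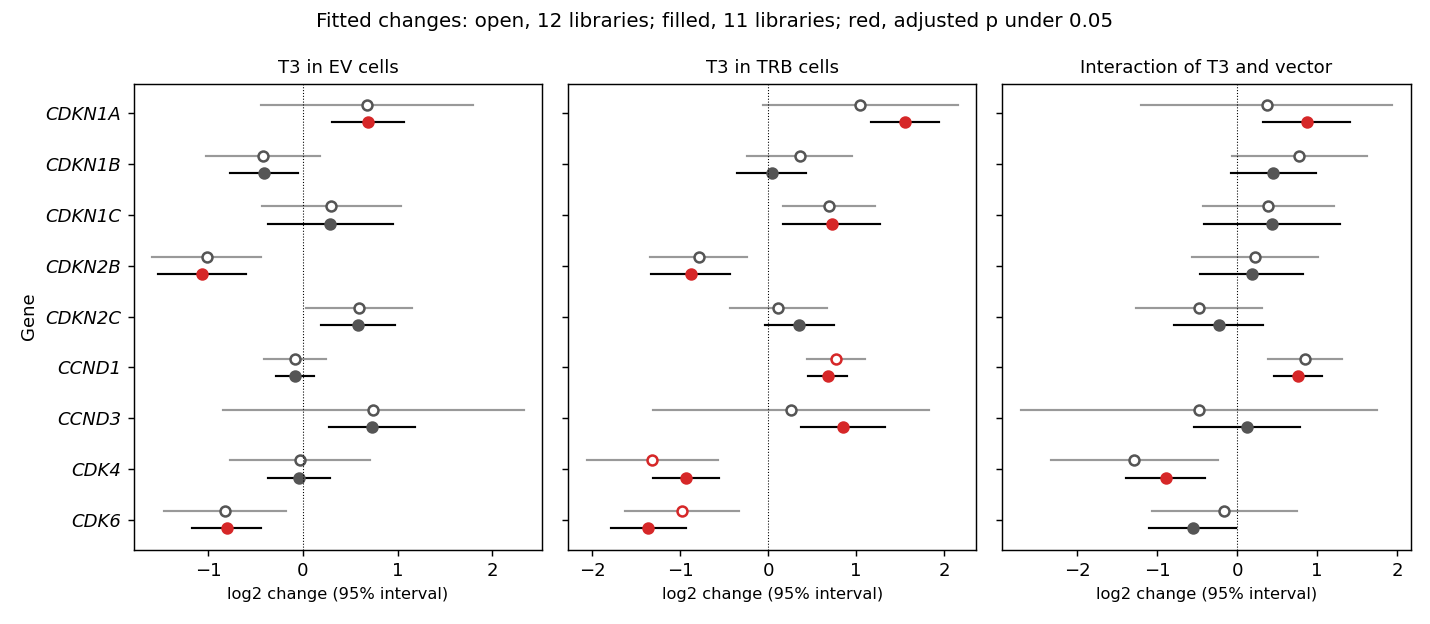
Fitted log2 changes with 95% intervals for the 9 tested genes with T3 in EV cells, with T3 in TRB cells and as the difference between these changes (TRB minus EV); open points are the 12-library fit, filled points the 11-library fit, and red marks an adjusted p under 0.05. CCND1 and CDK4 differ from 0 in TRB cells and in the 11-library difference, and lie near 0 in EV cells.

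T3 in EV cells, where the receptor was at its endogenous level, gave 0 member calls in the 12-library edgeR fit, beside 0.229% of all genes tested; 3 members had an unadjusted p under 0.05, and DESeq2 also called 0 (166 genes in all), as did a fit of the EV libraries alone (200 genes). In the 11-library fit 3 members passed beside 7.33% of all genes: CDKN1A rose, as did 3.76% of all genes, and CDKN2B and CDK6 fell, as did 3.57%. That count depended on single libraries: it was 0 without EV vehicle replicate 2 (2.1% of all genes called), 1 without EV T3 replicate 1 (2.2%) and 6 without EV T3 replicate 2 (40.3%). The GC trends of EV T3 replicates 1 and 3 differed from those of EV vehicle, while that of EV T3 replicate 2 lay within their range. CDKN1A, with 58.1% GC, is richer in GC than CDKN2B and CDK6. With GC-dependent offsets on the 11 libraries the changes were 0.47 for CDKN1A (adjusted p = 0.011), -1.03 for CDKN2B (adjusted p = 0.00368) and -0.51 for CDK6 (adjusted p = 0.000104). The share of each file's total that was not uniquely placed also differed, at 33.08% to 66.32% in EV vehicle and 69.60% to 91.95% in EV T3. Its part in these changes was not tested.

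TRB against EV cells in vehicle gave 0 member calls in either edgeR fit, beside 0.0208% and 0.0742% of all genes, and 0 members had an unadjusted p under 0.05. A fit of these 6 libraries alone called 1563 genes and again 0 members. The largest of the 11-library differences were 0.30 for CDKN2B (95% interval -0.09 to 0.68) and 0.27 for CDK4 (95% interval -0.06 to 0.59).

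TRB against EV cells under T3 gave 1 call in the 12-library fit, beside 6.68% of all genes: CCND1 was higher by 0.78 ± 0.15 (adjusted p = 0.0119). The 11-library fit gave 3 calls beside 19.7% of all genes, CDKN1A and CCND1 higher (CCND1 by 0.70 ± 0.10, adjusted p = 0.000392) and CDK4 lower (-0.62 ± 0.17, adjusted p = 0.0221). CDK6 was at -0.54 (adjusted p = 0.0689). This comparison shares its TRB T3 libraries with that of T3 in TRB cells.

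The direct test of whether the T3 response differed between the 2 cell populations, the interaction of T3 and vector, gave 0 calls among members in the 12-library edgeR fit beside 2.59% of all genes. In that fit 2 members, CCND1 and CDK4, had an unadjusted p under 0.05, and DESeq2 called 1. The response of TRB cells in this test includes the higher THRB level of TRB T3. In the 11-library fit 3 passed beside 15.2% of all genes: CDKN1A (0.87 ± 0.25, adjusted p = 0.034), CCND1 and CDK4. Of 16 alternative fits of the 12 libraries, CCND1 passed in 2, CDK4 in 1 and CDKN1A in 0. CCND1 passed in 15 of 15 alternative fits of the 11 libraries, CDK4 in 11 and CDKN1A in 8. Without TRB T3 replicate 3 as well, which leaves 1 library in that group, the adjusted p-values were 0.0285 for CCND1, 0.0865 for CDK4 and 0.143 for CDKN1A. The count was then 1 (1158 genes called), as it was without TRB T3 replicate 1 (1074 genes) or TRB vehicle replicate 1 (1517 genes).

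Few of the other G1 genes passed. Of 29 other G1 genes (cyclin E, CDK2, retinoblastoma and E2F family members and their regulators), 0 passed in the 12-library edgeR fit for T3 in TRB cells, beside 14.7% of all genes. In that fit 6 of the list had an unadjusted p under 0.05, and the list's median log2 change was 0.03 beside 0.01 over all genes. In the 11-library fit 1 rose and 2 fell, beside 33.3% of all genes called, and the list's median equalled that of all genes at -0.01. CCNE1, the cyclin that follows D-type cyclins, rose by 0.76 ± 0.11 (adjusted p = 0.000157), E2F5, a repressor-type E2F, changed by -1.07 ± 0.21 (adjusted p = 0.00168), and CKS1B, a CDK adaptor, changed by -0.42 ± 0.12 (adjusted p = 0.0158). CCNE1 and E2F5 also passed in EV cells in the 11-library fit, at 0.42 ± 0.10 (adjusted p = 0.0326) and -0.76 ± 0.18 (adjusted p = 0.0306), beside 7.33% of all genes.

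CCNE1 was at 23.0 to 24.8 CPM in EV vehicle, 31.0 to 33.4 CPM in EV T3, 20.3 to 22.1 CPM in TRB vehicle, and 33.9, 22.1 and 35.6 CPM in TRB T3. The EV groups did not overlap, and TRB T3 replicate 2 sat at the vehicle level.

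Among 22 E2F target genes, which serve DNA replication, 0 passed for T3 in TRB cells in the 12-library edgeR fit, beside 14.7% of all genes. In that fit 3 of the list had an unadjusted p under 0.05, and the list's median was -0.08 beside 0.01 over all genes. The 11-library fit called 1 higher and 3 lower, beside 18.1% and 15.2% of all genes, with a median of -0.11 beside -0.01 over all genes. FEN1, a flap endonuclease, rose by 0.37 ± 0.13 (adjusted p = 0.0387), and TYMS, thymidylate synthase, changed by -0.57 ± 0.11 (adjusted p = 0.00128), MCM3 by -0.31 ± 0.11 (adjusted p = 0.0446) and MCM6 by -0.30 ± 0.10 (adjusted p = 0.0268), the MCM proteins being parts of the replicative helicase. In EV cells MCM5 (0.50 ± 0.13, adjusted p = 0.0444) and FEN1 (0.47 ± 0.12, adjusted p = 0.0311) rose in the 11-library fit, as did 3.76% of all genes. TRB cells under T3 had 6 of the 22 lower than EV cells under T3 and 0 higher in the 11-library fit, where 7.90% of all genes were lower and 11.8% higher, led by MCM3 (-0.59 ± 0.11, adjusted p = 0.00248), TYMS (-0.52 ± 0.11, adjusted p = 0.00438), MCM6 (-0.50 ± 0.10, adjusted p = 0.0028) and MCM5 (-0.49 ± 0.15, adjusted p = 0.0356). The list's median was -0.22 there, beside 0.02 over all genes. MCM3 was the only one that passed with all 12 libraries (-0.77 ± 0.16, adjusted p = 0.018), beside 6.68% of all genes. The interaction passed for TYMS (-0.68 ± 0.14, adjusted p = 0.00742) and MCM3 (-0.60 ± 0.15, adjusted p = 0.0169) in the 11-library fit, beside 15.2% of all genes.

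CDKN1A is one of many p53 targets, and the 22 other targets listed did not move as a block. For T3 in TRB cells 3 rose and 1 fell in the 12-library fit, beside 8.54% and 6.20% of all genes, and 7 rose and 5 fell in the 11-library fit, beside 18.1% and 15.2%, with medians of 0.30 and 0.11 beside 0.01 and -0.01 over all genes. TP53I3, an oxidoreductase gene, was at 15.9, 17.8 and 20.6 CPM in EV vehicle, 25.5, 19.9 and 31.9 CPM in EV T3, 16.1, 15.7 and 19.0 CPM in TRB vehicle, and 214.4, 95.3 and 240.6 CPM in TRB T3. TP53INP1, a stress-induced nuclear protein gene, was at 1.85 to 4.17 CPM in the 9 libraries outside TRB T3 and at 18.4, 35.6 and 17.5 CPM within it. For both genes the TRB T3 libraries stood clear of all others. Their log2 changes in TRB cells were 3.44 ± 0.34 (adjusted p = 9.44e-05) for TP53I3 and 3.45 ± 0.34 (adjusted p = 8.70e-05) for TP53INP1 in the 12-library fit, and 3.80 and 3.10 in the 11-library fit. Also in the 12-library fit GADD45A, a growth-arrest gene, rose by 0.83 ± 0.22 (adjusted p = 0.0268), and BTG2, an antiproliferative gene, changed by -0.92 ± 0.22 (adjusted p = 0.016). With 11 libraries GDF15, a secreted stress factor, rose by 1.77 ± 0.21 (adjusted p = 3.59e-05) and SESN2, a sestrin, changed by -1.40 ± 0.16 (adjusted p = 2.96e-05). In EV cells 0 of the 22 passed in the 12-library edgeR fit, beside 0.229% of all genes, and 0 of the 22 had an unadjusted p under 0.05. SESN2 alone passed in the 11-library fit (-0.59 ± 0.15, adjusted p = 0.0347), beside 7.33% of all genes. TRB cells under T3 had 4 of the 22 higher and 1 lower than EV cells under T3 in the 11-library fit, beside 11.8% and 7.90% of all genes. They were led by TP53I3 (3.23 ± 0.17, adjusted p = 7.81e-08), TP53INP1 (2.34 ± 0.20, adjusted p = 5.24e-06), GDF15 (1.89 ± 0.22, adjusted p = 7.06e-05) and PLK3, a stress-response kinase gene (0.72 ± 0.17, adjusted p = 0.0109).

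**Figure D5:**
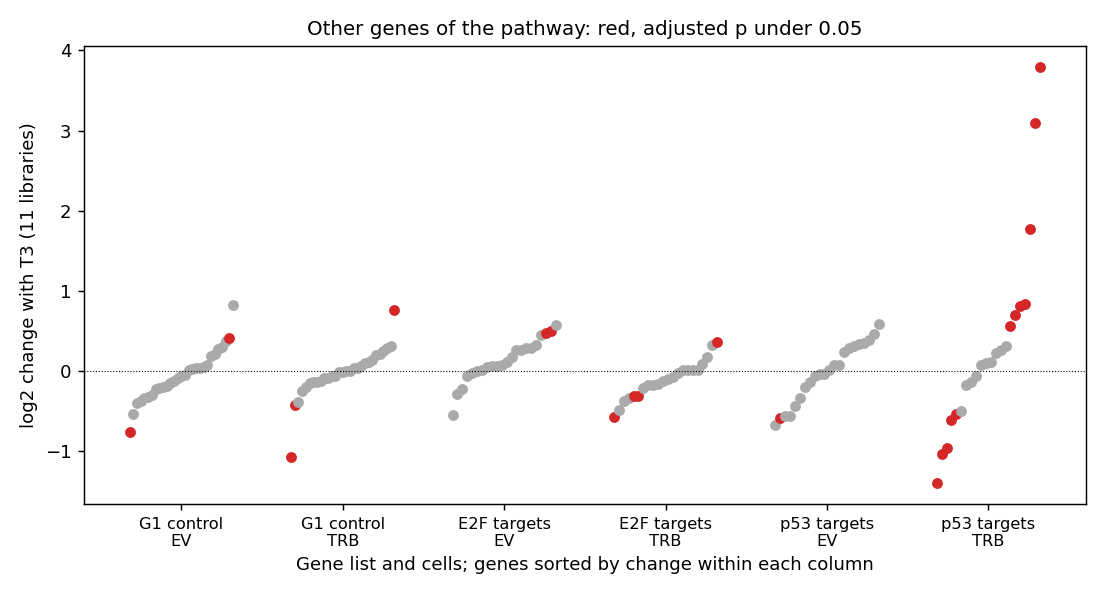
Log2 change with T3 in the 11-library fit for each tested gene of the lists of other G1 control genes (29), E2F targets (22) and p53 targets (22), in EV and TRB cells; each point is a gene, sorted within its column, and red marks an adjusted p under 0.05. Most genes of the first 2 lists lie near 0, while TP53I3 and TP53INP1 reach 3.80 and 3.10 in TRB cells.

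For the gene of each class with the smallest p for T3 in TRB cells in the 12-library fit, the 3 genes with the most similar profile were found among 10094 genes, by the root mean square difference of centred log2 CPM over 11 libraries. CDKN2B, whose own SD over these libraries was 0.60, was nearest to VEGFA, an angiogenic growth factor (0.224), PLK2, a polo-like kinase (0.245), and SLC2A1, the glucose transporter GLUT1 (0.262). CCND1 (SD 0.26) was nearest to PCGF3, a polycomb component (0.0609), SLC17A5, a lysosomal sialic acid transporter (0.0647), and PSMD11, a proteasome subunit (0.0686). CDK4 (SD 0.39) was nearest to RPL31 (0.0523) and RPS12 (0.070), which encode ribosomal proteins, and ESYT1, a membrane-contact protein (0.0625). These are descriptions over libraries that share groups and treatment.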

How the data were processed

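Total RNA from SW1736 cells was sequenced in 12 libraries (4 groups of 3). The authors deposited raw read counts per gene symbol for each library; per the submitters' processing notes they used CASAVA 1.7, STAR 2.7, HTSeq 0.10, DESeq2 and hg38, and the strand setting and annotation are not given in the sources used here. A deposited normalized table was not used. Lines that name no gene were left out: 19.03% to 91.95% of each file's total was not uniquely placed, 2.14% to 24.37% lay outside genes and 0.26% to 1.81% was ambiguous. The share not uniquely placed was 33.08% to 66.32% in EV vehicle, 69.60% to 91.95% in EV T3, 43.68% to 66.88% in TRB vehicle and 19.03% to 66.62% in TRB T3. EV T3 replicate 3 had the highest share and the fewest gene counts. Counts were fitted with edgeR 4.0.16 in R 4.3.3 (TMM scaling, quasi-likelihood test, filterByExpr with a minimum count of 10 and total of 15), with 1 coefficient per group over all 12 libraries and again over the 11 without TRB T3 replicate 2. P-values were adjusted over all genes tested by Benjamini-Hochberg, with a threshold of 0.05. The standard error is the log2 change divided by the t quantile of its p-value. The biological coefficient of variation was 0.329 with 12 libraries and 0.131 with 11. CPM are the counts scaled by TMM; levels per kilobase use merged exons of GENCODE on GRCh38, and GC content is that of the longest transcript. Promoter windows came from RefSeq (GRCh38.p14). The limits given for counts of 0 cover counting error only; the 95% intervals of log2 changes come from the fit and hold the spread between libraries. No 2 libraries of 1 group agreed within sampling noise (chi-square per gene at least 3.08). The fit was tested on simulated counts without GC trends, with changes put into TRB T3. Each gene had the same spread in every simulated library, while in the data TRB T3 replicate 2 stood apart. The rates below are those of the simulated counts and may differ from those of the data. With 12 libraries the fit recovered 6.12% of 2-fold and 54% of 4-fold changes, and with 11 libraries 76% and 90.8%. Of the calls, 4.76% and 5.71% were false. A 2-fold change that did not pass with 12 libraries may therefore have been missed.

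The 10 genes and the pathway lists were chosen with earlier results of these data known. Named were all 10 members, up to 4 passing genes with the largest change per pathway list and comparison, and for 1 gene of each class the 3 most similar genes; sequences and neighbouring genes are named as stated. Alternatives were DESeq2 1.42.0 and its size factors, no filter, the compared groups alone, a replicate block, GC offsets and leaving out each library.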

Additional observations from a re-analysis of the deposited data

Results flagged for a closer look

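The interaction test of T3 and vector passed for 3 members in the 11-library edgeR fit, beside 15.2% of all genes. CCND1 passed in 15 of 15 alternative fits of these libraries, CDK4 in 11 and CDKN1A in 8. The difference of the log2 changes (TRB minus EV) was 0.87 for CDKN1A, 0.76 for CCND1 and -0.89 for CDK4, with adjusted p-values of 0.034, 0.00321 and 0.02. None of these passed in the 12-library edgeR fit, which includes TRB T3 replicate 2 (adjusted p = 0.741, 0.0664 and 0.189). Of 16 alternative fits of the 12 libraries, CCND1 passed in 2, CDK4 in 1 and CDKN1A in 0. Among the p53 targets the same test passed in the 12-library fit for TP53INP1 (3.15, adjusted p = 0.00755) and TP53I3 (2.94, adjusted p = 0.00833), beside 2.59% of all genes. Both were higher in 3 of 3 TRB T3 libraries than in every other library.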

How the results depend on the processing

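Over all settings that left out 1 library, or that library and 1 more, members called ranged from 1 to 7 for the T3 response of TRB cells, from 0 to 6 for that of EV cells, from 1 to 4 for the vector contrast under T3 and from 0 to 4 for the interaction. They stayed at 0 for the vector contrast in vehicle. In the same order, genes called over the whole table ranged from 1256 to 6445, 10 to 6006, 414 to 4655, 136 to 5459 and 1 to 725. Where this left 1 library in TRB T3, that library was assumed to vary like the other groups.

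With 12 libraries, fits of the compared groups alone called 0 members for the T3 response of TRB cells (634 genes) and 0 for the vector contrast under T3 (32 genes), beside 3 and 1 in the fit of all groups. No filter gave 0 for the latter. DESeq2 gave 2 there (1832 genes) and 1 for the interaction (953 genes), and called 166 genes for the EV response and 8 between vectors in vehicle. GC offsets gave 5 members for the TRB response, 4 for the vector contrast under T3 and 3 for the interaction, with 4334, 2449 and 1388 genes. The causes were not tested.

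With 11 libraries the members called, in the order TRB response, EV response, vector contrast under T3 and interaction, were 6, 4, 4 and 4 with GC offsets (6784, 2177, 4941 and 4087 genes), 6, 4, 4 and 3 with DESeq2 (4696, 1849, 2904 and 2591 genes), and 7, 3, 3 and 3 with DESeq2's size factors in edgeR (4929, 1195, 2929 and 2304 genes). Compared groups alone gave 7 for the TRB response (7352 genes) and 2 for the vector contrast under T3 (1224 genes).

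Same-numbered libraries are not said to share a source. Correlations of their deviations ran from -0.19 to 0.73, and in each of the 4 compared pairs of groups 2 of the 3 were over 0.1. In these pairs 3 or 4 of the 6 libraries correlated best with their own number. These values do not settle whether the numbers mark pairs, and the main fits did not take them as pairs. A replicate block left the 12-library members' counts at 3, 0, 0, 1 and 0 (18 genes in place of 33 for the EV response) and gave 7, 5, 3 and 3 with 11 libraries (5223, 1965, 3223 and 3274 genes). For the EV response with 11 libraries this was 5 members in place of 3, and 1965 genes in place of 1087. With the replicate block the changes of CCND3 with T3 in TRB cells (-0.08) and of PLK3 between vectors under T3 (-0.04) turned sign with 12 libraries.

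Other reversed signs were of changes that did not pass in the 12-library fit or, for CCND3 and MCM6 in the TRB response, PLK3 between vectors under T3 and CDKN1A in the interaction, passed only with 11. CDK4 with T3 in EV cells was 0.02 with DESeq2's size factors and 0.01 with DESeq2. CDKN1B in the TRB response was -0.04 with GC offsets and 11 libraries. The CCND3 interaction, -0.48 with 12 libraries, was 0.24 with GC offsets, 0.11 with DESeq2 and 0.11 with its size factors on 11. The CDKN2B interaction was -0.15 with GC offsets and 12 libraries. MCM6 in the TRB response was 0.01 with DESeq2's size factors. With libraries left out, the log2 change in the TRB response ran from -0.14 to 0.55 for CDKN1B, -0.07 to 0.50 for CDKN2C, -0.10 to 0.92 for CCND3 and -0.35 to 0.10 for MCM6. CDK4 in the EV response ran from -0.20 to 0.22. Between vectors under T3, CDK6 ran from -0.71 to 0.02 and PLK3 from -0.20 to 0.83. The interaction ran from -0.04 to 0.99 for CDKN1A (lowest without TRB T3 replicate 3 while replicate 2 was kept), -0.16 to 0.39 for CDKN2B and -0.89 to 0.34 for CCND3.

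Cyclin D1 made up 89.5%, 82.8%, 88.6% and 91.4% of D-type cyclin transcripts (EV vehicle, EV T3, TRB vehicle, TRB T3) by longest transcript length. By the length of all exons the means were 94.9%, 91.2%, 94.3% and 95.7%. The TRB T3 means include replicate 2, at 99.5% and 99.8%. Without it the all-exon mean of TRB T3 was 93.7%. By longest transcript length, TRB T3 replicates 1 and 3 were at 87.3% and 87.4%. Depth limits CDKN1C (7 to 34 reads) and CCND2 (1 read in all).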
